A study of Salvia dorisiana with 6 samples.

Results

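*Salvia dorisiana* transcripts with homology to enzymes of diterpenoid biosynthesis were examined in 6 tissues. The set holds 5 of the 85 transcripts in the deposited table, and it was chosen by cluster name from their closest database match. Levels were not part of this rule, but earlier results of these data were known when it was set. They are clust70 and clust927, the terpene synthases closest to copalyl diphosphate synthase or other diterpene synthases, and clust1609, clust1568 and clust1540, the cytochrome P450s closest to ferruginol synthase. RNA had been sequenced from 1 library per tissue: isolated trichomes, small leaves (<3 cm), medium leaves (3–10 cm), large leaves (>10 cm), stem and roots. All plants were grown in a greenhouse, multiplied by cutting and left untreated. The trichomes were taken from apical buds and from young leaves of more than a single size class, so they have no exact counterpart among the leaf libraries.

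Diterpenes are made in plastids from geranylgeranyl diphosphate, which the methylerythritol phosphate (MEP) pathway supplies with its precursors. A class II synthase, copalyl diphosphate synthase, first cyclises it to copalyl diphosphate. A class I synthase of the kaurene synthase family, such as miltiradiene synthase, then removes the diphosphate and closes the abietane skeleton. P450s of the CYP76AH subfamily, known as ferruginol synthases from *Salvia miltiorrhiza*, oxidise that skeleton, and CYP76AK enzymes, known from rosemary and sage, act on it further. The products include carnosic acid in the glandular trichomes of rosemary and sage and the tanshinones in roots of *S. miltiorrhiza*. In isolated trichomes of *S. dorisiana* the authors annotated ferruginol, carnosol and carnosic acid, from mass spectra compared with a library.

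The annotation of the members is given in this order of roles. The closest match of clust70 was a copalyl diphosphate synthase, and its PFAM domains were terpene synthase and prenyltransferase (Prenyltrans) domains. The closest matches of clust927 were diterpene, kaurene and sclareol synthases, with the terpene synthase domains only. Miltiradiene synthase was not named for clust927, so a place in an abietane pathway is not given by its annotation. Among the P450s, clust1609 was closest to ferruginol synthase CYP76AH1, clust1568 to a ferruginol synthase-like CYP76 and clust1540 to the ferruginol synthase-like CYP76AK6. These names are matches in other species, and no activity of the 5 transcripts was measured in these data. The authors did clone SdCYP76AH36, SdCYP76AK17 and SdCYP76AK18 from *S. dorisiana*, but the deposited annotation pairs none of them with a member. In the same table, 2 more transcripts matched diterpenoid enzymes, clust874 (kaurene, miltiradiene or sclareol synthase) and clust1600 (ferruginol synthase), and they are given below for comparison.

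Levels are RPKM as deposited, that is, read numbers relative to transcript length and to the mapped reads of the library. This allows comparison between transcripts of different length. The mapping reference was built from trichome reads only, so transcripts absent from those reads are in neither the list nor the totals. Ratios between tissues depend on these totals, and the effect was not tested. Whole numbers of mapped read pairs, here called fragments, were recovered from the RPKM, with library totals of 3314347 in trichomes to 19415968 in medium leaves. Intervals are exact 95% intervals from these fragments and cover counting error only. Since each tissue has 1 library, differences between tissues have no replicate check and were not tested. The authors let a read match several transcripts, so the CYP76 members, and likewise the synthases, can share reads. The table itself had been selected by the study on these libraries for high levels in trichomes and for correlation with limonene synthase and pathway metabolites, so a high trichome level is a property of every listed transcript. The lowest trichome level in the list was 1004 RPKM.

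All 5 members, like every listed transcript, had their highest level in trichomes, and the CYP76 transcripts exceeded the diterpene synthases there. The copalyl diphosphate synthase-like clust70 was at 5637 RPKM in trichomes, 458 in small leaves, 224 in medium leaves, 60.9 in large leaves, 49.2 in stem and 5.57 in roots. The diterpene synthase clust927 was at 3011 RPKM in trichomes, 113 in small leaves, 59.8 in medium leaves, 16.9 in large leaves, 11.2 in stem and 1.90 in roots. Both synthases thus had the same order of tissues, with roots at the low end. Their root levels rest on 87 fragments for clust70 and 17 for clust927, which gives intervals of 4.46 to 6.87 RPKM and 1.11 to 3.04 RPKM.

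The ferruginol synthase match clust1609 was the most abundant of the 5 in every tissue. It was at 16299 RPKM in trichomes, 2394 in small leaves, 1326 in medium leaves, 578 in large leaves, 392 in stem and 750.1 in roots. Among all 85 listed transcripts it ranked 3 in trichomes, 1 in small leaves, 1 in medium leaves, 7 in large leaves, 10 in stem and 4 in roots. Its root level was above that of large leaves and of stem, unlike that of the synthases.

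The other P450s differed from each other mainly outside the trichomes. Transcript clust1568 was at 7808 RPKM in trichomes, 685 in small leaves, 298 in medium leaves, 67.8 in large leaves, 91.1 in stem and 152 in roots. Transcript clust1540, closest to CYP76AK6, was at 6361 RPKM in trichomes, 623 in small leaves, 377 in medium leaves, 176 in large leaves, 124 in stem and 10.6 in roots. In roots, clust1568 was therefore between its levels in medium leaves and stem, whereas clust1540 had its lowest value of the 6 tissues there, from 104 fragments. For each of the 5 members, every pair of neighbouring tissues in its order was apart in counting error, the closest being large leaves over stem for clust70 (ratio 1.24, interval 1.14 to 1.35).

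**Figure D1:**
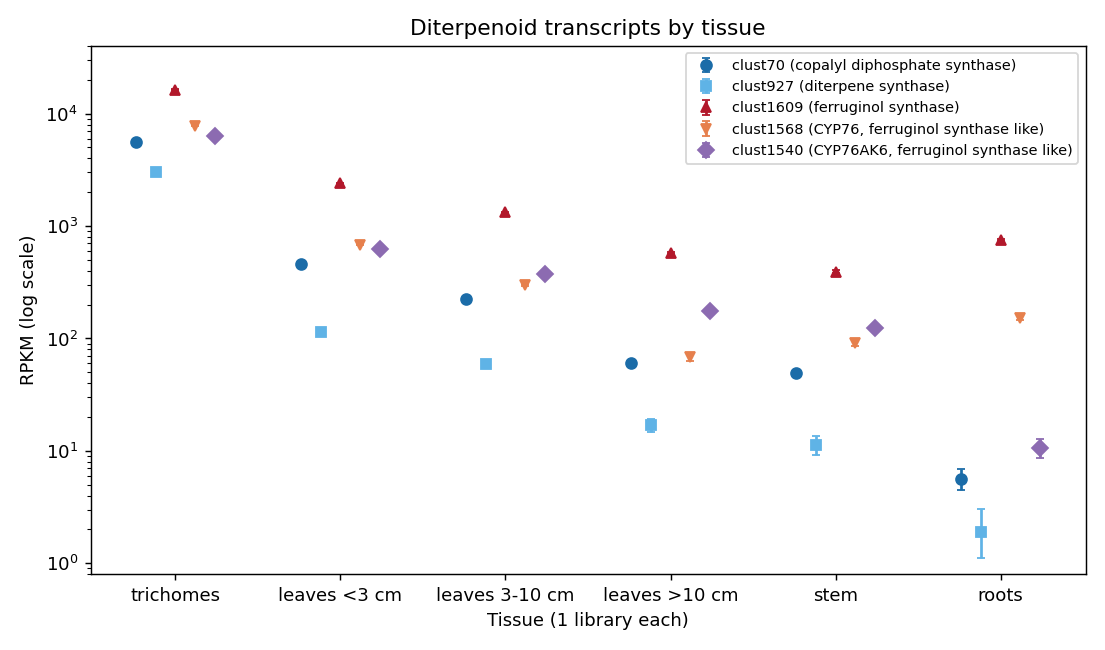
RPKM (log axis) of the 5 diterpenoid transcripts in the 6 tissues, with 1 library per tissue; bars are exact 95% Poisson intervals and are mostly smaller than the symbols. In roots clust1609 at 750.1 RPKM and clust1568 at 152 RPKM stand above clust1540, clust70 and clust927, which are at 10.6 RPKM or less.

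As a share of the mapped fragments, the 5 transcripts took 6.34% in trichomes (interval 6.31% to 6.37%), 0.681% in small leaves, 0.362% in medium leaves, 0.140% in large leaves, 0.104% in stem and 0.138% in roots. Fragments that mapped to no trichome transcript are not in these totals, so these are not shares of all sequencing. In trichomes the CYP76 members held 4.58% and the synthases 1.77% of the fragments. Within the summed RPKM of the 5, clust1609 made up 41.7% in trichomes, 56.0% in small leaves, 58.0% in medium leaves, 64.3% in large leaves, 58.7% in stem and 81.5% in roots. The synthases clust70 and clust927 made up 14.4% and 7.70% in trichomes, and 0.605% and 0.206% in roots. In bulk samples such as these, fewer cells of a type and less RNA per cell cannot be told apart.

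Trichomes were then set against small leaves, the leaf library with the highest level of each member. Transcript clust927 had the largest ratio of the 5, at 26.6 (interval 25.4 to 27.8), which placed it 4 of 85 in the list. The ratio was 12.3 for clust70 (12.1 to 12.5), 11.4 for clust1568 (11.2 to 11.6) and 10.2 for clust1540 (10.0 to 10.4). The abundant clust1609 had the smallest, at 6.81 (6.73 to 6.88), and ranked 65 of 85. On the log2 scale of RPKM + 1 these are differences of 4.72 for clust927, 3.62 for clust70, 3.51 for clust1568, 3.35 for clust1540 and 2.77 for clust1609.

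Thus 4 of the 5 members were over 10-fold higher in trichomes than in small leaves, where 51.8% of the listed transcripts were. The member closest to this limit was clust1540. The median ratio of the members was 11.4, against 10.2 over the list, so the set as a whole was near the other listed transcripts in this comparison. Both synthase ratios, 26.6 and 12.3, lay above the CYP76 ratios of 11.4, 10.2 and 6.81. Outside the members the direction was the same, with medians of 14.9 for 11 other terpene synthases and 9.06 for 7 other P450s. Over 10-fold were 10 of these 11 and 2 of these 7, where 51.8% of the list was. The ratio of clust70 was below the median of the other terpene synthases. For reference, the ratio was 12.3 for clust603, the cluster of the limonene synthase SdLS (and of SdEuS), and 9.22 for clust1545, the cluster of the limonene 7-hydroxylase SdL7H. In the trichome library these enzymes were at 22369 and 9290 RPKM. All 85 transcripts were highest there. The list had been selected for high trichome levels, so it offers no independent check of the trichome label.

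The members were also set relative to the SdLS cluster in trichomes and in small leaves. The ratio of clust70 to SdLS was 0.252 in trichomes and 0.252 in small leaves, that of clust1568 was 0.349 and 0.377, and that of clust1540 was 0.284 and 0.343. The ratio of clust927 to SdLS was 0.135 (interval 0.132 to 0.137) in trichomes and 0.0623 (0.0598 to 0.0650) in small leaves. That of clust1609 was 0.729 (0.722 to 0.735) in trichomes and 1.32 (1.30 to 1.33) in small leaves. Thus the ferruginol synthase match was below SdLS in trichomes and above it in all 3 leaf libraries, whereas the diterpene synthase clust927 lay farther below SdLS in leaves than in trichomes.

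Against the other tissues all 5 members were over 10-fold higher in trichomes, a limit that 76.5% of the list passed against medium leaves, 78.8% against large leaves, 84.7% against stem and 82.4% against roots. Against stem the ratio was 268 for clust927, 115 for clust70, 85.7 for clust1568, 51.3 for clust1540 and 41.6 for clust1609. The order of the members was nearly the same against large leaves, with clust1568 above clust70. Against large leaves the members had a median ratio of 92.6, and the list 29.8. The ratio over large leaves was 179 for clust927, 115 for clust1568, 92.6 for clust70, 36.1 for clust1540 and 28.2 for clust1609. Against roots the ratios spanned a wider range, with 1586 for clust927, 1012 for clust70 and 603 for clust1540, but 51.3 for clust1568 and 21.7 for clust1609.

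In leaves of rising size all 5 transcripts were lower at each step, an order that 76.5% of the listed transcripts had. It held for all 5 also relative to the list median of each library, where 49.4% of the list had it. All 5 were also over 2-fold lower in large leaves than in small leaves, as were 60% of the list. The members kept less of their level than most of the list did. In large leaves, clust1568 stood at 9.90% of its level in small leaves (interval 9.27% to 10.6%). The synthases stood close together, at 13.3% for clust70 (12.6% to 14.0%) and 14.9% for clust927 (12.9% to 17.1%). Transcript clust1609 kept 24.2% (23.6% to 24.7%) and clust1540 28.2% (27.0% to 29.5%). The median of the members was 14.9%, against 39.0% over the 85 transcripts, and all 5 lay below the list median.

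The steps between leaf sizes were unequal. In medium leaves the members were still at 43.6% (clust1568) to 60.5% (clust1540) of their level in small leaves. In large leaves they were at 22.7% (clust1568) to 46.7% (clust1540) of their level in medium leaves, a lower share for each of the 5 than at the step before, as for 70.6% of the list. The member medians were 52.8% at the first step and 28.2% at the next, and the list medians 67.6% and 50.1%. Relative to the SdLS cluster in the same library, which itself kept 17.8% in large leaves over small leaves, the members parted. The ratio of clust1540 to SdLS was 0.343 in small leaves and 0.545 in large leaves, and that of clust1609 was 1.32 and 1.79. For clust1568 it was 0.377 in small leaves and 0.210 in large leaves. Relative to SdLS, 3 of the 5 were then lower at each step, clust70, clust927 and clust1568, as were 18.8% of the list.

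**Figure D2:**
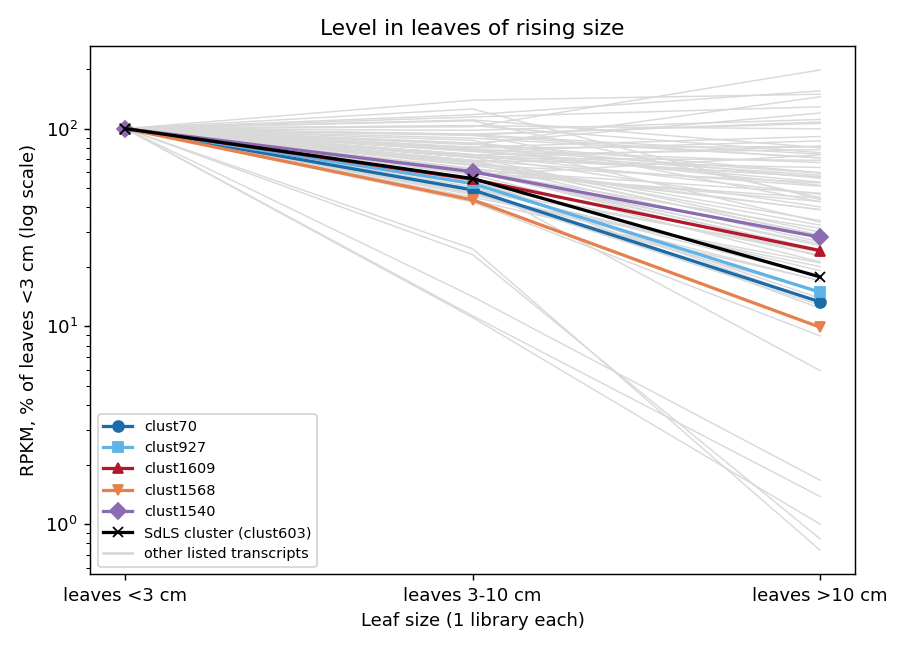
RPKM in leaves of rising size as a percentage of small leaves (log axis), with 1 library per size; coloured lines are the 5 diterpenoid transcripts, the black line is the SdLS cluster and grey lines are the other listed transcripts. The members end between 9.90% (clust1568) and 28.2% (clust1540) in large leaves.

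Roots were set against stem, and here the members divided. Transcript clust1609 was 1.91-fold higher in roots than in stem (interval 1.84 to 1.99) and clust1568 was 1.67-fold higher (1.54 to 1.81). The other 3 members were lower in roots, with a ratio of 0.169 for clust927 (0.0952 to 0.283), 0.113 for clust70 (0.0898 to 0.141) and 0.0851 for clust1540 (0.0691 to 0.104). Over 1.5-fold higher in roots were thus 2 of the 5 members, where 15.3% of the listed transcripts were, and over 1.5-fold lower were 3 of the 5, where 68.2% were. The median ratio over the list was 0.173. Relative to the list median of each library, clust1609 and clust1568 were again over 1.5-fold higher in roots, at 13.7 and 12.0, where 49.4% of the list was higher and 29.4% lower. On that scale clust927 was at 1.21, clust70 at 0.812 and clust1540 at 0.610.

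The P450s of the list did not share the root level of clust1609 and clust1568. None of the 7 other P450s was over 1.5-fold higher in roots than in stem and 7 of 7 were over 1.5-fold lower, with ratios of 0.0423 to 0.409. Over the list these shares were 15.3% and 68.2%. Among these P450s was clust1600, the other ferruginol synthase match, at 2.26 RPKM in roots and 22.8 in stem. Among the 11 other terpene synthases, 2 were over 1.5-fold higher in roots, clust874 and the sesquiterpene synthase match clust1244. Transcript clust874, which like clust927 matched kaurene and sclareol synthases, was at 118 RPKM in roots and 19.1 in stem, a ratio of 6.18 (5.40 to 7.11) that ranked 3 of 85.

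**Figure D3:**
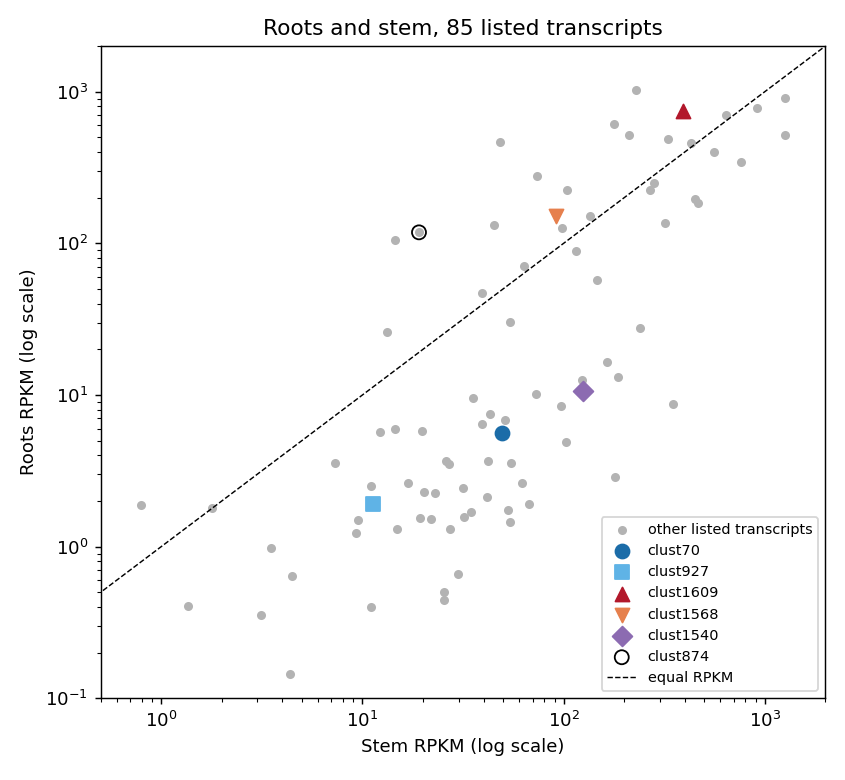
RPKM in roots (vertical) against RPKM in stem (horizontal), both on log axes, for the 85 listed transcripts, with 1 library per tissue; the dashed line marks equal levels. Transcripts clust1609 and clust1568 and the open circle, clust874, lie above the line, and clust70, clust927 and clust1540 lie below it.

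The balance between the enzyme classes was followed within each library, where it does not depend on the library total. The summed RPKM of the CYP76 members was 3.52 times that of the synthase members in trichomes, 6.48 in small leaves, 7.04 in medium leaves, 10.6 in large leaves, 10.0 in stem and 122 in roots. Trichomes had the lowest excess of P450 transcripts and roots the highest. In roots this rests on a summed synthase level of 7.47 RPKM, or 104 fragments. Without clust1609 the ratio was 1.64 in trichomes and 21.8 in roots. With clust874 counted among the synthases and clust1600 among the P450s, it was 2.92 in trichomes and 7.29 in roots, so the root value depends on which transcripts are counted. Synthase transcripts absent from the trichome reference could not be counted.

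Single pairs showed where the balance shifted. The ratio of clust1609 to clust70 was 2.89 in trichomes (interval 2.86 to 2.92), 5.22 in small leaves, 5.91 in medium leaves, 9.50 in large leaves, 7.97 in stem and 135 in roots (109 to 168). The ratio of clust1568 to clust70 stayed between 1.11 in large leaves and 1.85 in stem in the other 5 libraries, and was 27.4 in roots (22.0 to 34.4). By contrast, clust1540 kept a ratio to clust70 of 1.13 in trichomes to 2.89 in large leaves over all 6 libraries, with 1.90 in roots (1.41 to 2.55). The CYP76AK6 match and the copalyl diphosphate synthase match were thus both low in roots. This was common in the list, where 68.2% were over 1.5-fold lower in roots than in stem.

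The synthase members clust70 and clust927 differed in level by a moderate factor. The ratio of clust70 to clust927 was 1.87 in trichomes (1.84 to 1.91), 4.05 in small leaves (3.87 to 4.23), 3.75 in medium leaves, 3.61 in large leaves, 4.38 in stem and 2.93 in roots (1.73 to 5.26). Only the trichome interval lay below those of the leaf and stem libraries, and the root interval overlapped all of them. Among the P450s, the ratio of clust1568 to clust1540 was 1.23 in trichomes, 1.10 in small leaves, 0.791 in medium leaves, 0.385 in large leaves, 0.735 in stem and 14.4 in roots. These transcripts were thus close in level in trichomes and the smallest leaves, with the order turned round in larger leaves and stem.

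**Figure D4:**
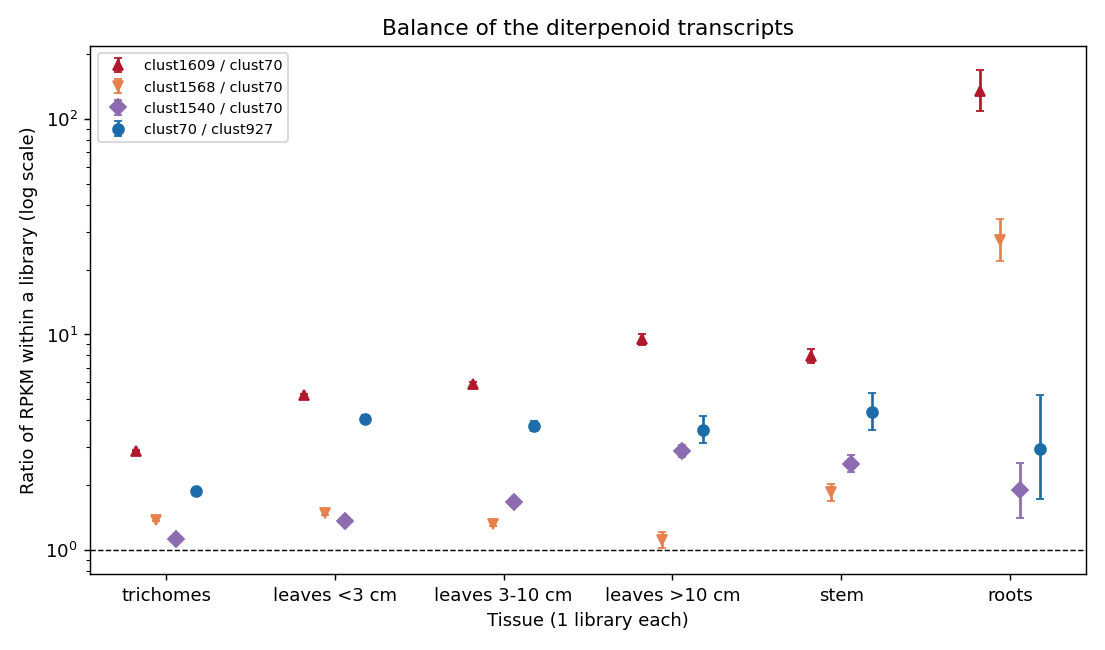
Ratios of RPKM within each library (log axis) for the CYP76 transcripts over clust70 and for clust70 over clust927, by tissue, with 1 library each; bars are exact 95% intervals and the dashed line marks a ratio of 1. The ratios of clust1609 and clust1568 to clust70 reach 135 and 27.4 in roots, while those of clust1540 to clust70 and clust70 to clust927 are 1.90 and 2.93 there.

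The other transcripts that matched diterpenoid enzymes were lower than the members of their class in trichomes. The kaurene, miltiradiene or sclareol synthase match clust874 was at 2218 RPKM in trichomes, 127 in small leaves, 56.9 in medium leaves, 26.6 in large leaves, 19.1 in stem and 118 in roots. Its ratio to clust927 was 0.737 in trichomes (0.719 to 0.755), 1.12 in small leaves, 0.952 in medium leaves, 1.58 in large leaves, 1.70 in stem and 62.2 in roots (38.7 to 107). Outside the roots these class I matches were within a factor of 2 of each other, and in roots clust874 had 1359 fragments and clust927 had 17. The ferruginol synthase match clust1600 was at 1312 RPKM in trichomes, 161 in small leaves, 97.2 in medium leaves, 39.3 in large leaves, 22.8 in stem and 2.26 in roots. It stayed at 0.184 to 0.258 of the level of clust1540 in all 6 libraries.

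Profiles over the 6 libraries were compared by the root mean square difference of log2(RPKM + 1), each profile centred on its own mean, where 0 means equal fold differences in every tissue. The median over all 3570 pairs of listed transcripts was 1.42, and over the 10 pairs of members it was 1.46, so the members were no more alike as a set. The pairs clust70 and clust927 (0.434), clust70 and clust1540 (0.465) and clust1609 and clust1568 (0.599) were the closest of the 10 pairs of members. The pair clust927 and clust1540 was at 0.783, and the 6 pairs of clust1609 or clust1568 with the other 3 members lay between 1.39 and 1.69. The grouping rested on the roots library. Without it the closest pairs were clust1609 and clust1540 (0.195) and clust70 and clust1568 (0.236), while clust1609 and clust1568 were at 0.648.

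The listed transcripts nearest to the members came from several enzyme classes. For clust70 they were clust3515 (phenylcoumaran benzylic ether reductase-like, 0.153), clust1812 (ketoacyl-ACP synthase, 0.210) and clust2665 (BURP domain protein, 0.252). For clust927 they were clust2942 (fatty acyl-CoA reductase, 0.322), clust1093 (germacrene D or caryophyllene synthase, 0.367) and clust4655 (an ethylene-responsive transcription factor, 0.367). For clust1540 they were clust2724 (flavonoid O-methyltransferase, 0.152), SdL7H (0.162) and clust2472 (O-methyltransferase, 0.189). The same transcripts were nearest to clust1609 and to clust1568, namely the SdLS cluster (0.454 and 0.330), clust1416 (aldehyde dehydrogenase, 0.366 and 0.516) and clust2795 (uncharacterised, 0.316 and 0.543). SdLS was at 455 RPKM in roots and 428 in stem, so like clust1609 and clust1568 the limonene synthase cluster was not lower in roots, whereas SdL7H was, at 13.1 in roots and 185 in stem. These likenesses describe 6 libraries on which the list had been selected. Without the roots library 5 of the 15 stayed among the nearest, 2 for clust70, 3 for clust927 and 0 for each CYP76 member, and clust70 was then among the 3 nearest to clust1568.

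The transcripts that matched enzymes of the precursor pathways were counted in the same way, and the difference between lists was not tested. Over 1.5-fold higher in roots than in stem were 2 of the 5 diterpenoid members and 5 of the 8 transcripts for the MEP pathway and isopentenyl diphosphate isomerase. The share over the whole list was 15.3%. Lower at each step in leaf size were 5 of the 5 members and 2 of these 8 precursor transcripts, where 76.5% of the list was. The median share of the small-leaf level kept in large leaves was 14.9% for the members and 86.3% for these 8. The most abundant in trichomes were clust1630, a match to 4-hydroxy-3-methylbut-2-enyl diphosphate reductase, the last enzyme of the pathway, and clust133, a match to the synthase before it. Transcript clust1630 was at 6891 RPKM in trichomes, 703 in small leaves, 518 in medium leaves, 550.5 in large leaves, 229 in stem and 1032 in roots. The list held 2 prenyltransferases, clust3337 and clust3861, both closest to lavandulyl diphosphate synthase, at 2368 and 1625 RPKM in trichomes and 30.2 and 3.53 in roots. Both were over 1.5-fold lower in roots than in stem and lower at each step in leaf size, as clust70, clust927 and clust1540 were. Over the list these shares were 68.2% and 76.5%. None of these annotations named geranylgeranyl diphosphate synthase, which makes the substrate of copalyl diphosphate synthases.

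Among the other terpene synthases, which apart from clust874 matched mono- and sesquiterpene synthases, 9 of 11 declined at each step in leaf size. That order was found in 76.5% of all 85 listed transcripts, so this count was near the list. The median share of the small-leaf level kept in large leaves was 24.2% for these 11, above the 13.3% and 14.9% of the diterpene synthase members. Their ratios of large to small leaves ran from 0.1325, next to clust70 at 0.1329, to 1.49. The highest in trichomes after the SdLS cluster was clust1129, a germacrene D synthase match, at 9979 RPKM in trichomes and 316 in large leaves. The 7 other P450s were all lower at each step, beside the same 76.5% of the list, with a median of 22.6% kept, between clust1568 and clust1609. The highest of these P450s in trichomes after SdL7H was clust1523, a CYP71 match, at 3193 RPKM in trichomes and 52.2 in large leaves, which kept 8.95% and was the only one of the 7 below clust1568.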

How the data were processed

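RNA was sequenced by the authors from 6 tissues of *S. dorisiana*, 1 stranded library each, as read pairs on an Illumina instrument, with CASAVA 1.8.1 named in the submitters' processing notes. Reads had been mapped in CLC Genomics Workbench to consensus sequences of clustered open reading frames (600 nt or longer) found in PacBio reads of trichomes, with a pair counted as 1, strand ignored and several matches per read allowed. The authors deposited RPKM for 85 transcripts selected on the same libraries. They also gave 2 columns of their own correlation coefficients, with pathway metabolites and with limonene synthase, which were not used. RPKM columns of samples outside the series numbered 0. No genome was used, and sequences are not printed.

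RPKM was used as deposited, without a filter. Ratios were taken on RPKM, and log2 differences after adding 1 RPKM (the pseudocount), so that changes of low transcripts are understated. Fragments were recovered as whole numbers from RPKM, transcript lengths in steps of 3 nt from 600 to 3000 nt and library totals. Whole fragments, to within 0.001, were found for 510 of 510 values, and the fitted lengths ran from 609 to 2961 nt. In 5 simulated tables the search found 30 of 30 library totals and 99.5% of transcripts fully. Totals are the smallest that fit: if the true ones were multiples, the intervals would be too wide. Intervals at 95% are exact Poisson for levels and Clopper-Pearson for ratios, for counting error only.

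Transcripts were called at over 10-fold between trichomes and another tissue, over 2-fold between leaf sizes and over 1.5-fold between roots and stem, beside the share of all 85 called. The text names the 5 members, SdLS, SdL7H, clust874, clust1600, the 3 nearest profiles of each member and the 2 highest in trichomes of each gene list. Transcript clust1244 was named after its values were seen. The members, lists and rules were chosen with earlier results of these data known. Alternatives were other pseudocounts, fold limits, scalings, sums and measures of likeness. Computation used Python 3.11.15, numpy 2.4.6, pandas 2.3.3 and scipy 1.17.1.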

Additional observations from a re-analysis of the deposited data

How the results depend on the processing

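Of 36 alternative values of the main results, 13 stayed within 1.5 times a count or within the counting interval of a ratio. The number of members over 10-fold in trichomes over small leaves was 4, and it was 1 at 20-fold (12.9% of the list). It was 5 at 5-fold (81.2% of the list). Relative to SdLS, 3 members declined at each step in leaf size, against 5 on RPKM. At 3-fold, 0 members were higher in roots over stem (7.06% of the list), against 2 at 1.5-fold (15.3%). The ratio of summed CYP76 to summed synthase members, over trichomes, leaves of rising size, stem and roots, was 2.59, 4.43, 4.84, 7.29, 6.83 and 85.6 on fragments not scaled by length. It was 1.64, 2.29, 2.38, 3.14, 3.56 and 21.8 without clust1609, and 2.92, 5.53, 6.15, 8.26, 7.92 and 7.29 with clust1600 and clust874 added. Roots had the highest ratio except in the last case. Of the 15 nearest profiles of the members, 8 stayed with Pearson correlation as the measure, 5 without the roots library, 11 without the trichomes library and 11 with a pseudocount of 0.1 RPKM. The log2 ratio of clust927 in trichomes over small leaves was 4.62 with a pseudocount of 10 RPKM, against 4.72. No paired analysis was possible because each tissue has 1 library. Depth limits the root values most, with 17 fragments for clust927. The absolute number of fragments rests on the smallest totals that fit. Variation between plants and between library preparations cannot be estimated.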
